A study of Mus musculus with 9 samples.

Results

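The 10 genes described here (P2ry12, P2ry13, Gpr34, Cx3cr1, Siglech, Fcrls, Tmem119, Slc2a5, Olfml3 and Sparc) are genes by which resting microglia are commonly recognised. They were taken by symbol from the gene list of the count matrices, and all 10 were found among 27998 listed genes. Their transcripts were counted in single CD45+ CD11b+ cells sorted from the retinas of female Arr1-/- mice of 2 to 5 months. These mice lack visual arrestin (Arr1), the protein that ends the light response of rods, in every cell and at every time point, so that the day 0 mice carry the deletion too. They were born and kept in darkness, and day 0 mice stayed there, while day 7 and day 20 mice spent 7 or 20 days in continuous room light of about 200 lux. There were 3 libraries for each day. The gate took live CD45+ CD11b+ cells, which can include monocytes and other macrophages beside microglia. The sample titles give the times in hours and the treatment labels in days, and the days are used here. Each day drew on several mice and on both of their retinas, and the sources used here do not say how these were divided over the 3 libraries of a day, so that p-values below measure the spread between libraries, which may be technical.

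Microglia are the resident macrophages of the retina and brain. In a healthy tissue they hold fine, moving processes and a set of surface molecules with which they read nucleotides, chemokines and lipids around them. This set is known to be turned down when they become activated. P2ry12 and P2ry13 are receptors for ADP, Gpr34 is a receptor for lysophosphatidylserine, and Cx3cr1 is the receptor for the chemokine fractalkine, which neurons make. Siglech is a receptor of the Siglec family that signals through the adaptor Dap12, and Fcrls is an Fc receptor-like scavenger receptor. Tmem119 is a membrane protein of unclear function used as a microglia marker, Slc2a5 is a fructose transporter, and Olfml3 and Sparc are secreted matrix proteins. Sparc is also made by other glia and by vessel cells.

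The libraries shared many cell barcodes. Of 5022 barcode entries, only 1365 were different, 612 stood in more than 1 library, and each of the 36 pairs of libraries shared 270 to 542. Each barcode was therefore counted only in the library where its UMI total (unique molecular identifiers, 1 for each captured transcript) was highest. After filters on detected genes, mitochondrial share and marker genes, 734 cells were retained. Day 0 gave 254 cells, day 7 gave 282 and day 20 gave 198, or 17 to 193 for each library, with 20443 to 265207 UMIs. Replicate 3 of day 7 was the smallest, with 17 cells. Levels are given as CPM, the UMIs of a gene in 1000000 UMIs of a library. The 15 myeloid marker genes, none at 0, made 50603 to 52445 CPM at day 0, 38691 to 45101 CPM at day 7 and 51266 to 55761 CPM at day 20, so that the day 7 libraries lay below all others, and markers of other cell types moved with the day as well. The summed level of 10 monocyte and macrophage markers was 255 to 295 CPM at day 0, 1663 to 3056 at day 7 and 1096 to 1234 at day 20, with none of the 10 at 0. Rod markers, 11 genes of which 1 (Rp1) was at 0, lay at 1067 to 6384, 320 to 1027 and 183 to 1058 CPM. Markers of Muller glia and astrocytes (6 genes) lay at 36.7 to 251, 90.5 to 1321 and 113 to 1082 CPM. Those of neurons (8 genes) lay at 10.4 to 164, 30.0 to 391 and 102 to 730 CPM. Both lists reached higher in light, with ranges that overlapped between days. Lens markers, 6 genes with Crygd at 0, lay at 6.12 to 692, 0 to 984 and 0 to 31.5 CPM. The 6 perivascular macrophage markers reached 101 CPM at most, with Cbr2 and Cd163 at 0. The part of these transcripts in the results below was not tested. All levels are shares of a library's UMIs, and in such sums fewer microglia and less RNA of a gene in each microglial cell cannot be told apart. Cx3cr1 is also expressed by monocyte-derived cells, as the paper states. The part of such cells in the levels of the 10 genes was not tested.

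The 10 genes lie on 7 chromosomes (mouse build GRCm38, GENCODE M21), and all are protein coding. P2ry12 (chromosome 3, 59216272 to 59262871, minus strand) and P2ry13 (chromosome 3, 59207892 to 59210882, minus strand) are neighbours, and both overlap Med12l, which runs on the opposite strand. Fcrls (chromosome 3, 87250758 to 87263738, minus strand) and Olfml3 (chromosome 3, 103722222 to 103738001, minus strand) stand further along the same chromosome. Gpr34 on chromosome X overlaps Cask, again on the opposite strand. The annotated span of Cx3cr1 on chromosome 9 overlaps Csrnp1, Gorasp1 and Xirp1 on its own strand. Whether its counts hold reads of a neighbour was not tested. Promoter sequences of 300 bases (250 before to 50 after the start, RefSeq, GRCm38.p6) were found for 8 of the 10 genes, not for Tmem119 and Gpr34. The promoters of the neighbours P2ry12 (chr3:59262936-59263235, minus strand) and P2ry13 (chr3:59210833-59211132, minus strand), which moved the same way in light, are shown with that of Fcrls (chr3:87263475-87263774, minus strand), which moved the opposite way. Capitals mark GAGGAAG, the core bound by PU.1, the factor that myeloid cells depend on, and related ETS factors.
P2ry12 promoter: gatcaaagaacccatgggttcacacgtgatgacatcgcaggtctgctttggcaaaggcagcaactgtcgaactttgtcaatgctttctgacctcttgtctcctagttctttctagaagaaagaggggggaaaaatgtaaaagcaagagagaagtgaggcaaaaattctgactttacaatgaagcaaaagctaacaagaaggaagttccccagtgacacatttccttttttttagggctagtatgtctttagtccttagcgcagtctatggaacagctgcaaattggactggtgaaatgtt
P2ry13 promoter: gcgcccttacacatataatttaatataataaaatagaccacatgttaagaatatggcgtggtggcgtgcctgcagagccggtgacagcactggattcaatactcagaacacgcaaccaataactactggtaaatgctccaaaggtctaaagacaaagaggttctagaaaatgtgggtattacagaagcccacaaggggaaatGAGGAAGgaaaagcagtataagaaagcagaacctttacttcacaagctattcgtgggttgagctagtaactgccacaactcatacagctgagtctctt
Fcrls promoter: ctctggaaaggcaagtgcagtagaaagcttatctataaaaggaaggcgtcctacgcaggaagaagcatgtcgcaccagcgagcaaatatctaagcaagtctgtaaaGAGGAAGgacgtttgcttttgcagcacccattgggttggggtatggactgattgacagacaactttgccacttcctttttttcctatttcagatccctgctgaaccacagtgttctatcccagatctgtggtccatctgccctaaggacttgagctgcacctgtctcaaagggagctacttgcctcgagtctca
GAGGAAG, searched on both strands, stood in 2 of the 8 promoters, P2ry13 (48 bases before the start) and Fcrls (144 bases before it), and in 13.6% of 32851 mouse promoters of the same length. TGANTCA, the AP-1 element, was in 0 of 8 and in 7.81% of all promoters. A match of GAGGAAG was thus found both in a gene that fell after light and in the gene that rose.

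After 7 days of light, 9 of the 10 genes were lower and Fcrls was higher. Together the 10 genes made 7812, 8215 and 6767 CPM in replicates 1 to 3 of day 0, 2032, 2058 and 2348 CPM at day 7, and 4539, 5195 and 4154 CPM at day 20, so that the days did not overlap. Each of the 10 genes differed between day 7 and day 0 by edgeR's quasi-likelihood test with Benjamini-Hochberg adjustment over 1357 genes. Of all genes tested in that comparison 26.5% passed, 16.6% as lower and 9.95% as higher. The libraries of both days did not overlap for any of the 10 genes, and over all genes 26.0% lay lower and 12.6% higher without overlap. The median log2 difference was −2.48 over the 10 genes and −0.07 over all genes tested. When shared barcodes were instead counted in every library that listed them, Fcrls passed (1.40, adjusted p = 0.00379) and the other 9 did not, with −0.71 for P2ry12 (adjusted p = 0.104) and −0.48 for Sparc (adjusted p = 0.143).

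Both ADP receptors fell after 7 days of light. P2ry12 was at 924, 999.6 and 1104 CPM at day 0, at 132, 149.8 and 196 CPM at day 7, and at 204, 403 and 352 CPM at day 20. Its day 7 libraries all lay below every other library, and the log2 difference from day 0 was −2.66 (standard error 0.34, adjusted p = 6.0e-05). P2ry13 was sparser, with 87 UMIs at day 0 and 9 at day 7, and fell by 2.80 on the log2 scale (0.57, adjusted p = 0.00225). Its libraries stood at 189.6, 219 and 153 CPM at day 0 and at 22.6, 9.99 and 97.8 CPM at day 7. The highest of these day 7 values came from 2 UMIs in the library of 17 cells.

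Gpr34 was at 777, 781 and 470.1 CPM at day 0 and at 113, 119.9 and 196 CPM at day 7, a log2 difference of −2.31 (standard error 0.35, adjusted p = 0.000219). Cx3cr1 was at 954, 937 and 514 CPM at day 0, at 204, 259.7 and 391 CPM at day 7 and at 574, 397 and 277 CPM at day 20. It had the smallest of the falls at day 7, −1.54 (0.35, adjusted p = 0.00544), and was the gene whose call rested on a single library. Without replicate 1 of day 7 its difference was −1.29 (adjusted p = 0.0655). Siglech was at 606, 729 and 339 CPM at day 0, at 60.3, 89.9 and 0 CPM at day 7 and at 433, 353 and 252 CPM at day 20. It fell by 2.97 at day 7 (0.42, adjusted p = 0.000139).

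Fcrls went the other way. Its libraries stood at 85.6, 98.9 and 65.6 CPM at day 0, at 468, 439 and 538 CPM at day 7, and at 382, 340.0 and 881 CPM at day 20. All 6 libraries from light lay above all 3 from darkness. The log2 difference was 2.57 at day 7 (standard error 0.39, adjusted p = 0.000219) and 2.49 at day 20 (0.39, adjusted p = 0.00216). Between day 20 and day 7 the difference was −0.07 (95% interval −0.82 to 0.67, adjusted p = 0.949). Replicate 3 of day 20 was the high library, and without it the day 20 difference from day 0 was 2.09 and still passed.

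Among the marker, transporter and matrix genes, Tmem119 was at 1315, 1270.3 and 940.1 CPM at day 0, at 169.7, 99.9 and 293 CPM at day 7 and at 306, 686 and 478 CPM at day 20. The day 7 difference was −2.74 (standard error 0.39, adjusted p = 0.00013). Slc2a5 had 24, 32 and 10 UMIs in the day 0 libraries, 0 in each day 7 library and 1, 4 and 1 at day 20. Over each day's UMIs together it was at least 19.0-fold lower at day 7 than at day 0, taking 3 counts over the group as the most that 0 allows (adjusted p = 0.000355). Olfml3 stood at 1119.5, 1447 and 1104 CPM at day 0, 324, 319.6 and 293 CPM at day 7, and 854, 1020.1 and 503 CPM at day 20. It fell by 1.83 at day 7 (0.31, adjusted p = 0.000495). Sparc stood at 1695, 1567 and 1968 CPM at day 0, 539, 569 and 342 CPM at day 7, and 1453, 1392 and 1032 CPM at day 20, with a fall of 1.65 at day 7 (0.28, adjusted p = 0.000507).

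**Figure D1:**
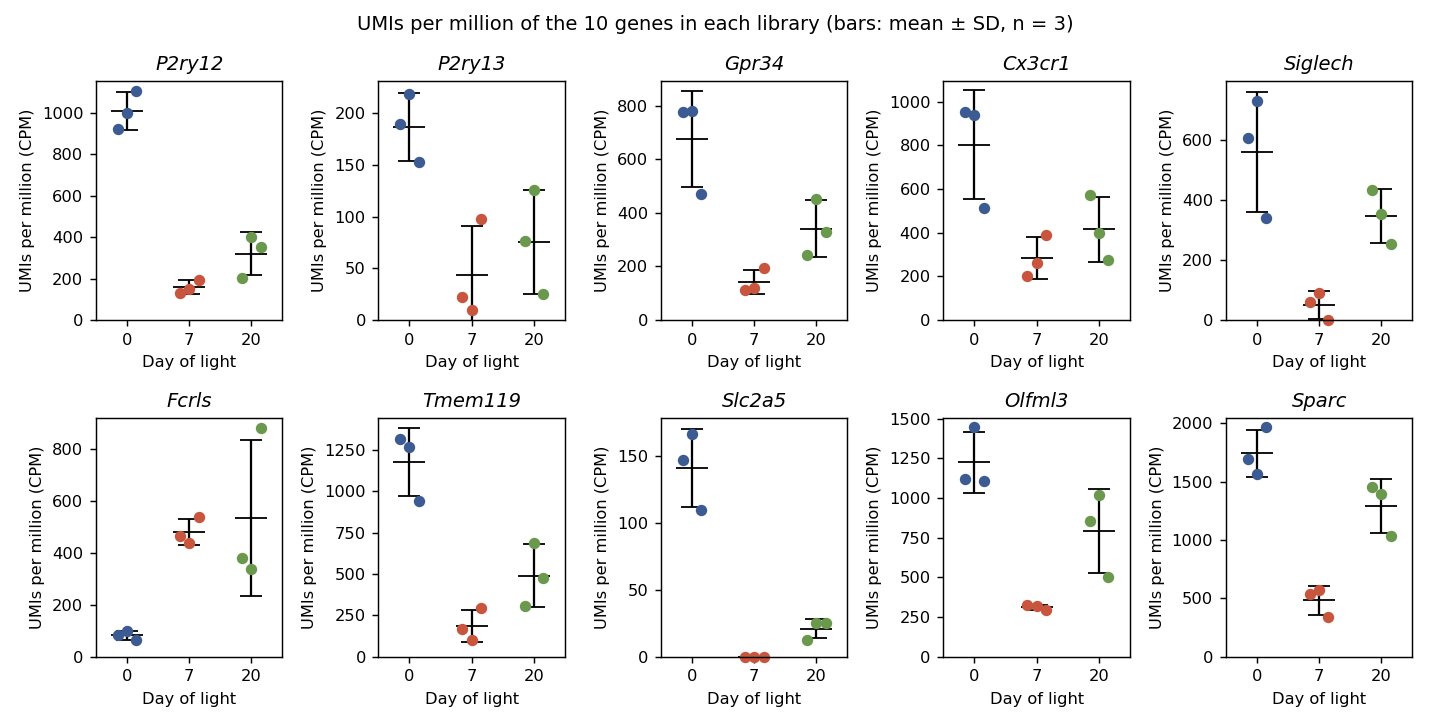
Counts per 1000000 UMIs (CPM, vertical axes from 0, a different scale for each gene) of the 10 genes on day 0, 7 and 20 of light, with 1 point for each of the 3 libraries of a day and the mean with its SD (cut at 0) in black. In 9 panels the mean falls from day 0 to day 7 and stands between the 2 at day 20, while Fcrls rises from 65.6 to 98.9 CPM at day 0 to 340.0 to 881 CPM in light.

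By day 20, fewer of the genes still differed from darkness. P2ry12, Slc2a5 and Tmem119 were lower and Fcrls was higher, 4 of 10 genes in all, where 3.83% of the 1357 genes passed, 2.73% as lower and 1.11% as higher. P2ry12 had a log2 difference from day 0 of −1.69 (standard error 0.30, adjusted p = 0.00499). For Slc2a5 the ratio of day 0 to day 20 was 6.82 (95% counting interval 2.97 to 19.2, adjusted p = 0.0305), and for Tmem119 the log2 difference was −1.28 (0.34, adjusted p = 0.0474). The median of the 10 genes was −0.98, beside −0.05 over all genes. P2ry12 and Fcrls passed in each of the 9 fits that left out a library, Tmem119 in 2 and Slc2a5 in 3. The number of genes that passed was 2 without any of the 3 day 0 libraries or without replicate 1 or 3 of day 20.

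The 6 other genes were below their day 0 level by the fitted value but did not pass. The log2 differences were −0.999 for Gpr34 (95% interval −1.65 to −0.35, adjusted p = 0.0894), −0.96 for Cx3cr1 (−1.66 to −0.26, adjusted p = 0.138) and −1.11 for P2ry13 (−2.07 to −0.14, adjusted p = 0.229). Siglech had −0.71 (−1.44 to 0.02, adjusted p = 0.322), Olfml3 −0.64 (−1.24 to −0.04, adjusted p = 0.267) and Sparc −0.47 (−1.02 to 0.09, adjusted p = 0.389). The day 20 and day 0 libraries overlapped for Cx3cr1 and Siglech. Of the 10 genes, 7 lay lower without overlap, where 13.9% of all genes did, and Fcrls lay higher, where 11.7% did. The 4 calls at day 20 depended on the processing. Retaining the barcodes left out by markers left 1, Fcrls alone, as did fitting all genes with no filter on low counts, while the replicate block left 2 and counting shared barcodes in every library left none (0 of 10 by edgeR, 2 with an unadjusted p under 0.05).

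Between day 7 and day 20, 4 of the 10 genes rose: Siglech, Tmem119, Olfml3 and Sparc. Of all genes 4.5% differed between these days, 3.32% as higher at day 20 and 1.18% as lower. Siglech rose by 2.26 on the log2 scale (standard error 0.44, adjusted p = 0.00912), Tmem119 by 1.47 (0.40, adjusted p = 0.0477), Olfml3 by 1.19 (0.31, adjusted p = 0.0418) and Sparc by 1.19 (0.28, adjusted p = 0.0256). P2ry12 had 0.97 (95% interval 0.22 to 1.72, adjusted p = 0.153), and Gpr34 had 1.31 (0.53 to 2.09, adjusted p = 0.0571). P2ry13 had 1.69 (0.34 to 3.04, adjusted p = 0.168) and Cx3cr1 0.58 (−0.21 to 1.36, adjusted p = 0.461). Slc2a5 went from 0 to 6 UMIs, at least 2.79-fold higher (adjusted p = 0.135). The libraries of both days did not overlap for 7 genes, all higher at day 20, where 14.4% of all genes lay higher and 5.45% lower without overlap. Leaving out replicate 1 of day 7, which held 193 of the 282 day 7 cells, took the number of genes that passed from 4 to 0. It was 1 without replicate 2 of day 7 or of day 20, and 2 without replicate 1 of day 20 or replicate 1 or 2 of day 0, whose libraries share in the estimate of spread. By edgeR it was also 0 with shared barcodes counted in every library (0 with an unadjusted p under 0.05), 0 with the barcodes left out by markers retained (8 with an unadjusted p under 0.05), and 1, Siglech, with no filter on low counts.

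**Figure D2:**
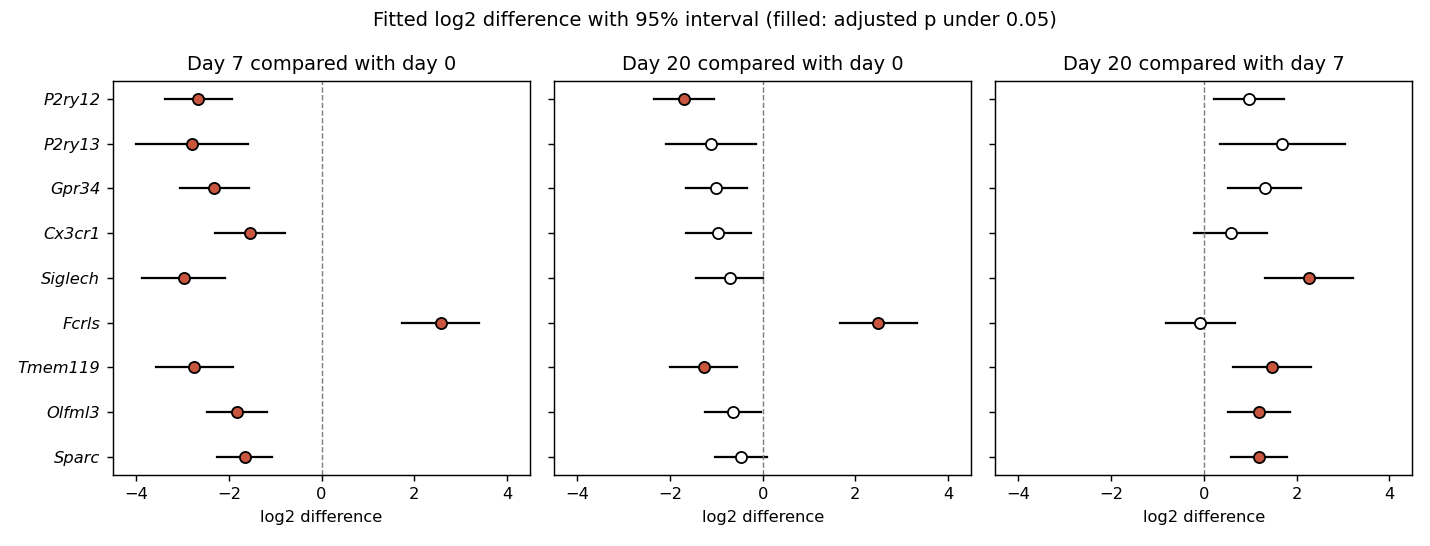
Fitted log2 differences (horizontal axes) of 9 genes between the days named above each panel, with 95% intervals, filled where the adjusted p is under 0.05. Slc2a5 is left out because it had 0 UMIs at day 7. All 9 points are filled in the first panel, with Fcrls alone to the right of 0 (2.57), and fewer are filled in the other panels.

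The same direction was seen in the numbers of cells with a transcript. Because deeper cells show more genes, each cell was thinned to 500 UMIs, which left 209, 251 and 150 cells at day 0, 7 and 20 and took out 45, 31 and 48 that were shallower. P2ry12 was detected in 27.0%, 34.1% and 34.0% of the cells of the day 0 libraries, in 5.26%, 5.88% and 8.33% at day 7 and in 8.51%, 6.58% and 18.5% at day 20. Sparc was detected in 54.1%, 58.0% and 59.6% of cells at day 0, in 23.4%, 20.6% and 8.33% at day 7 and in 40.4%, 36.8% and 33.3% at day 20. Fcrls was detected in 6.76%, 3.41% and 8.51% at day 0, in 18.1%, 10.3% and 33.3% at day 7 and in 21.3%, 23.7% and 29.6% at day 20. The library of 17 cells gave both the lowest Sparc share and the highest Fcrls share of day 7. Without thinning, P2ry12 was in 49.3%, 12.1% and 21.2% of cells at day 0, 7 and 20, and Fcrls in 10.1%, 34.3% and 35.9% (means of 3 libraries).

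An exact two-sided permutation test of the shares, 3 libraries in darkness against 6 in light over 84 splits, cannot give a p below 0.0119. P2ry12, Gpr34, Siglech, Tmem119, Slc2a5, Olfml3 and Sparc reached that p as lower, as did 6.71% of all genes, while 0.884% reached it as higher. Fcrls was higher by 16.5 percentage points (exact p = 0.0238), Cx3cr1 lower by 12.1 (exact p = 0.0357) and P2ry13 lower by 3.49 (exact p = 0.167). After adjustment over the 1357 genes none passed, while 9 of the 10 genes and 199 of all had an unadjusted p under 0.05, and the smallest adjusted p that a member had was 0.157. With 103 genes at the smallest possible p, adjustment could not bring any gene under 0.05. That none passed therefore says nothing about a single gene.

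Free RNA gives some UMIs in cells that do not express a gene. In the 87 barcodes left out by markers with 500 UMIs or more, of which 63 came from day 0, P2ry12 was seen in 4.60% (95% exact interval 1.27% to 11.4%), Siglech in 6.90% (2.57% to 14.4%) and Sparc in 14.9% (8.20% to 24.2%). Their median depth before thinning was 1327 UMIs, beside 1196, 1135 and 939.5 in the thinned cells of day 0, 7 and 20. Only 13 of the left-out barcodes came from day 7 and 11 from day 20. P2ry12 and Siglech were in 0 of the 13, which allows a share of up to 24.7% by the exact interval. Sparc was in 1 of the 13 (7.69%, 0.195% to 36.0%). Of the 11, P2ry12 was in 0 (up to 28.5%), Siglech in 2 (18.2%, 2.28% to 51.8%) and Sparc in 5 (45.5%, 16.7% to 76.6%). The day 20 means of retained cells, 11.2% for P2ry12, 12.3% for Siglech and 36.9% for Sparc, lay inside these intervals. Set against all 87, the day 7 mean of Siglech, 3.33%, was under the background share but inside its interval. Those of P2ry12 (6.49%) and Sparc (17.4%) were inside their intervals too. The same held for Cx3cr1 (6.15%, interval 0.0291% to 6.24%), Tmem119 (6.39%, 0.28% to 8.06%) and P2ry13 (3.56%, 0% to 4.15%). Gpr34 (9.76%, 0.717% to 9.75%) lay barely above its interval and Olfml3 (17.5%, 2.57% to 14.4%) further above its own. Most of the 87 barcodes came from day 0, and the background itself is known only loosely at days 7 and 20. How much of the detection at day 7 or day 20 came from free RNA thus cannot be read from these shares. The left-out barcodes may also hold doublets, for which no caller was run, and cells that make Sparc themselves. Fcrls was in 1.15% of all 87 barcodes (0.0291% to 6.24%), below its 20.6% at day 7 and 24.9% at day 20. In the barcodes of the same days it was in 0 of 13 (up to 24.7%) and in 1 of 11 (9.09%, 0.23% to 41.3%), intervals that hold those shares. At day 0 its 6.23% stood beside 0 of 63 (up to 5.69%).

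**Figure D3:**
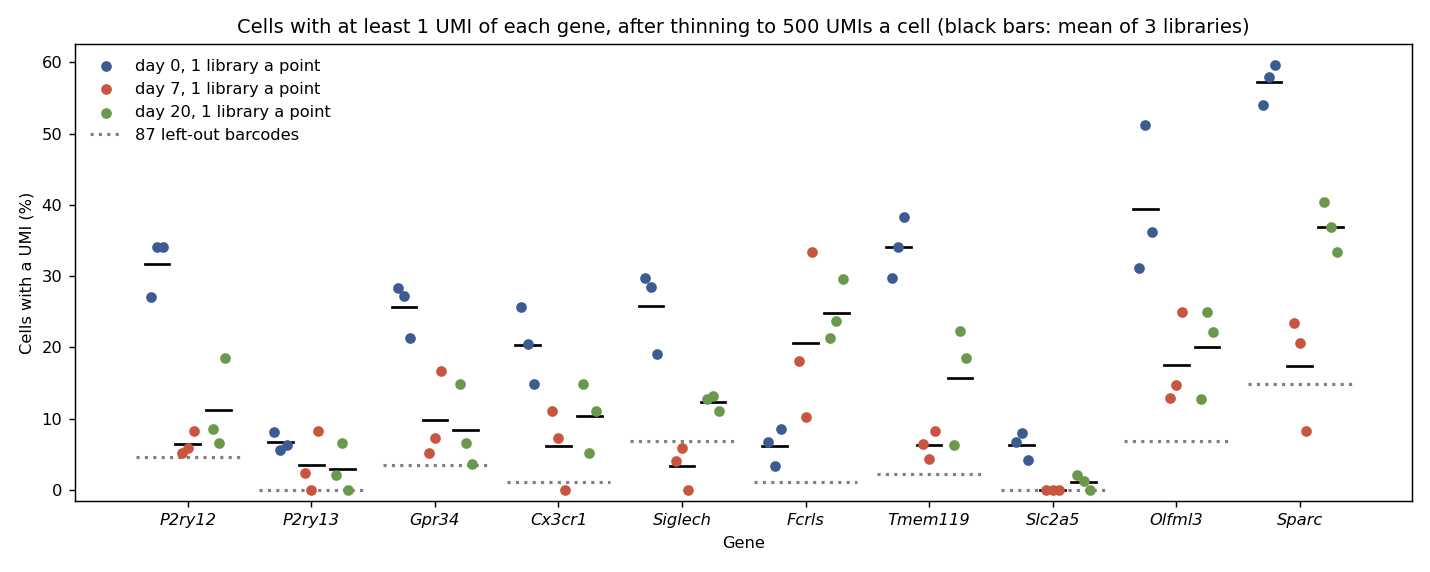
Percent of cells with at least 1 UMI of each gene after every cell was thinned to 500 UMIs, with 1 point for each library, black bars for the mean of 3 libraries, and a dotted line for the share in the 87 left-out barcodes. The day 0 points of P2ry12 (27.0% to 34.1%) stand well above those of light, the day 7 points of Siglech lie below the dotted line, and Fcrls alone is higher in light.

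The 9 genes other than Fcrls were also counted in each thinned cell. They were chosen as the genes with lower levels in light in these same data, so that a lower count in light follows from the choice. Fewer microglia and less RNA of these genes in each microglial cell cannot be told apart in these counts. A cell held transcripts of 2.47 ± 0.175 of the 9 genes at day 0, 0.706 ± 0.0441 at day 7 and 1.19 ± 0.0442 at day 20 (mean ± SD, n = 3 libraries). Cells with none of the 9 made 9.04% ± 2.91 at day 0, 52.8% ± 2.95 at day 7 and 32.2% ± 2.29 at day 20. Cells with 3 or more made 45.3% ± 6.19, 4.44% ± 3.52 and 13.3% ± 2.32. The most genes seen in a cell were 7, 4 and 6. The cells with 3 or more genes at day 20 thus lay between the other days, and the libraries of the 3 days did not overlap in the mean number of genes.

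**Figure D4:**
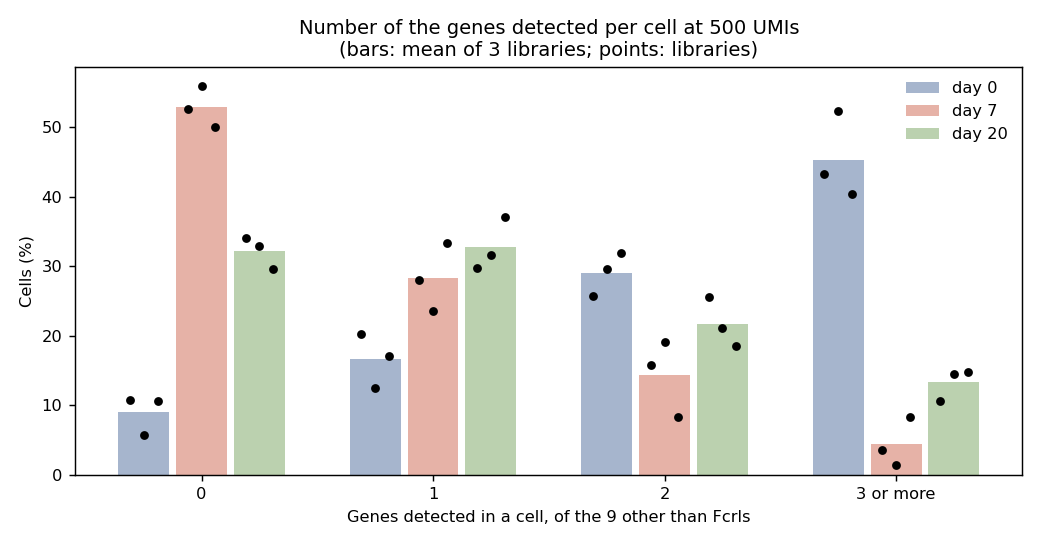
Percent of cells (vertical axis) with 0, 1, 2 or 3 or more of the 9 genes other than Fcrls detected at 500 UMIs a cell, with bars for the mean of 3 libraries and points for the libraries. Cells with 3 or more genes are 45.3% at day 0, 4.44% at day 7 and 13.3% at day 20.

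The cells with 0 UMIs of 4 MHC class II genes (Cd74, H2-Aa, H2-Ab1 and H2-Eb1, which present antigen) were examined on their own, since each of the 4 was higher at both days of light (adjusted p of H2-Aa = 4.7e-06 at day 7 and 0.0002 at day 20). Darkness had 180 such cells, day 7 had 21 and day 20 had 59, with 223408, 13807 and 38188 UMIs in all, so that the cells of both days of light were shallower than those of darkness, the day 7 cells were few, and only 2 day 7 libraries had the 5 cells required. In these cells 7 of the 10 genes had enough counts to be tested among 299 genes. At day 20, Siglech, Cx3cr1, Tmem119, P2ry12 and Gpr34 were lower than at day 0, 5 of 7, where 15.1% of the genes tested were lower and 1.34% higher. Siglech, at 781, 757 and 474 CPM at day 0, was at 112, 133 and 150.0 CPM at day 20, from 5 UMIs, a log2 difference of −2.63 (standard error 0.62, adjusted p = 0.00854). Cx3cr1 had −2.34 (0.68, adjusted p = 0.0258), from 6 UMIs at day 20, Tmem119 −1.85 (0.56, adjusted p = 0.0306), P2ry12 −1.59 (0.46, adjusted p = 0.0258) and Gpr34 −1.52 (0.48, adjusted p = 0.0368). Over all cells Siglech and Cx3cr1 had not passed, and whether the difference depended on the class of cell was not tested. Malat1 (−4.31, adjusted p = 2.0e-07) and Jun (−4.77, adjusted p = 2.0e-07) were also lower in these cells at day 20 by edgeR. At day 7 Malat1 had −4.55 (adjusted p = 1.2e-05). The MHC class II-negative cells of light thus differed from those of darkness in other RNA too. The part of RNA quality in the calls of the 10 genes was not tested. Olfml3 (−1.45, adjusted p = 0.0592) and Sparc (−0.50, adjusted p = 0.344) did not pass.

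At day 7, P2ry12 (adjusted p = 0.00789) and Tmem119 (adjusted p = 0.0328) were lower in these cells, 2 of 7 genes where 17.7% of all differed, 14% as lower and 3.68% as higher. Both calls rest on very few UMIs. P2ry12 had 0 and 1 UMI in the 2 libraries tested, and 2 UMIs in the third, whose 3 cells were too few to be tested and where it stood at 1242 CPM, beside 926, 1164 and 996 CPM at day 0. Tmem119 had 0 and 2 UMIs in the tested libraries and 0 in the third. Over each day's UMIs together the ratio of day 0 to day 7 was 4.84 for P2ry12 (95% counting interval 1.64 to 23.6) and 8.90 for Tmem119 (2.44 to 73.8). The other 5 genes did not pass, with adjusted p values of 0.054 to 0.292. With cells of up to 2 MHC class II UMIs included, 8 of 8 genes tested passed at day 7, where 28.4% of 683 genes did. Leaving out a day 0 or day 20 library changed the number of genes with enough counts, and the genes that passed ranged from 0 to 3 at day 7 and from 0 to 6 at day 20. Without replicate 2 of day 0 only 1 gene was tested, and it did not pass at either day. Without replicate 2 of day 20, 3 were tested and none passed at either day. Without replicate 1 or 3 of day 0, 2 were tested and 1 passed at either day. Most of the 7 genes were thus not tested in these fits, which cannot show whether their calls would have held. Without replicate 1 of day 7 none passed at day 7, and without replicate 1 of day 20 only 1 passed at day 20. Fcrls, not tested here for low counts, had 11, 12 and 2 UMIs in the day 0 libraries, 1, 4 and 4 at day 7 and 6, 11 and 2 at day 20, or 112, 652 and 498 CPM over each day's UMIs. Slc2a5 had 37 UMIs at day 0 and 0 at both later days.

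Cells of days 7 and 20 with at least 3 MHC class II UMIs were compared with those at 0 within the same libraries. Only Olfml3 and Sparc had enough counts. Olfml3 had a log2 difference of 1.10 (95% interval −0.15 to 2.35, adjusted p = 0.356) and Sparc −0.56 (−1.37 to 0.25, adjusted p = 0.445), neither with an unadjusted p under 0.05 and neither called by DESeq2, and 3.49% of the 229 genes tested passed, all higher. Malat1 (3.89, adjusted p = 0.000104) and Fos (2.74, adjusted p = 0.0446) were among those that passed by edgeR, so that the 2 classes also differed in other RNA. At day 7 alone the difference was −0.32 for Olfml3 (−2.48 to 1.84) and −1.23 for Sparc (−2.64 to 0.18), and at day 20 it was 1.48 for Olfml3 (0.29 to 2.68, unadjusted p = 0.0188 in edgeR, which did not pass adjustment) and −0.28 for Sparc (−1.16 to 0.60). The difference between the days in this contrast was 1.80 for Olfml3 (−0.83 to 4.44, adjusted p = 0.661) and 0.95 for Sparc (−0.68 to 2.58, adjusted p = 0.661).

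Immediate-early transcripts, which cells make within minutes of a stimulus, tissue digestion included, also moved with the day. The 12 genes of this group (Fos, Jun, Egr1 and others) made 3.32% to 4.32% of UMIs at day 0, 0.294% to 0.582% at day 7 and 0.773% to 2.13% at day 20. Within each library, cells above and below the library's median share of these transcripts were compared. Cx3cr1 (1.60, standard error 0.23, adjusted p = 1.6e-05), Tmem119 (1.16, 0.25, adjusted p = 0.00194) and P2ry12 (0.98, 0.26, adjusted p = 0.00983) were higher in the cells with more immediate-early RNA, 3 of 8 genes tested, where 15.1% of 556 genes were, 13.8% were lower and 29.0% differed either way. Gpr34 (0.53), Olfml3 (0.41), Fcrls (0.41), Siglech (0.40) and Sparc (−0.12) did not pass, with adjusted p values of 0.151 to 0.668. P2ry12 no longer passed without replicate 1 of day 0 (0.83), and Olfml3 passed without replicate 1 of day 7 (0.58). The lower-share cells were also examined alone, a choice made after the data were seen. In them these transcripts made 0.297% to 0.401% of UMIs at day 0 and 0.0498% to 0.21% at day 7, without overlap. Day and immediate-early RNA thus cannot be told apart there. In these cells 7 of 8 genes tested differed between day 7 and day 0, where 9.95% of 563 genes did. The exception was Cx3cr1, with −1.11 (adjusted p = 0.169), and Fcrls had 2.69. In those cells 1 gene, Fcrls, differed between day 20 and day 0, by 2.85, where 3.37% of all did. None of the 8 differed between day 20 and day 7 by edgeR, 2 of them with an unadjusted p under 0.05, where 0.355% of all genes did.

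Other genes of the same programme were read beside the 10. Of 16 other homeostatic microglia genes with enough counts, of 20 listed, 13 were lower at day 7 than at day 0 and none was higher. Of all genes tested 16.6% were lower and 9.95% higher. The median log2 difference of the 16 was −1.64. Cst3, the protease inhibitor cystatin C, went from 46165 ± 3033 CPM to 9121 ± 712 (mean ± SD, n = 3, log2 difference −2.24, adjusted p = 5.5e-06). The log2 difference was −3.68 for Rhob, a small GTPase, and −2.55 for Selplg, the P-selectin ligand. At day 20, 3 of the 16 were still lower than at day 0 (Crybb1, Cst3 and Selplg), where 2.73% of all genes were. Against day 7, 5 were higher, where 3.32% of all genes were, Cst3, Rhob and the growth factor receptor Csf1r among them. In cells with more immediate-early RNA, 2 of 10 tested genes of this list were higher, where 15.1% of 556 genes were. These were Selplg (1.14, adjusted p = 0.000478) and Csf1r (0.44, adjusted p = 0.0475). That count of 2 of 10 is near the share of all genes.

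Transforming growth factor beta (TGF-beta) is the signal on which the microglial programme depends. Of 15 listed genes of that pathway 6 had enough counts, and 5 of the 6 were lower at day 7, where 16.6% of all genes were. The log2 difference was −2.39 for the type I receptor Tgfbr1 (adjusted p = 0.00382), −1.32 for the ligand Tgfb1 (adjusted p = 0.00451), −1.20 for the integrin subunit Itgb5 (adjusted p = 0.00956) and −1.54 for Skil, an inhibitor of SMADs (adjusted p = 0.023). Itgb5 is also on the list of other homeostatic microglia genes above, so that it is counted in both lists. Tgfb1 was also higher in cells with more immediate-early RNA (0.76, adjusted p = 0.0271), 1 of 2 genes of this list tested there, where 15.1% of 556 genes were higher. At day 20 none of the 6 passed against day 0 by edgeR or DESeq2, 4 of them with an unadjusted p under 0.05 by edgeR and 2 by DESeq2, and the median log2 difference was −0.87. Of 12 nucleotide signalling genes only 1 had enough counts, and it did not pass. Of 4 testable partners of the 10 genes (adaptors, G proteins and the like), Cd34, a sialomucin, was lower at day 7 (−1.94, adjusted p = 0.0144) and the other 3 did not pass. That count of 1 of 4 is near the 16.6% of all genes that were lower.

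Genes of disease-associated microglia moved the opposite way. Of 12 tested, 8 were higher at day 7 and none lower, and 3 were higher at day 20. Of all genes 9.95% were higher and 16.6% lower at day 7, and 1.11% higher and 2.73% lower at day 20. Apoe, a lipid carrier, rose from 6082 ± 3055 to 98070 ± 23827 CPM at day 7 (log2 difference 4.11, adjusted p = 2.0e-05), Cd63, a tetraspanin of lysosomes, from 380.3 to 1174 CPM, and Igf1, a growth factor, was at 0 CPM at day 0 and at 193 CPM at day 7. All 6 tested monocyte and macrophage genes were higher at day 7, Ms4a7 (15.4 to 615 CPM) and Ifitm3 (78.0 to 678 CPM) among them, and 3 of the 6 at day 20. All 5 tested rod genes were lower at day 7, Pde6g, a subunit of the rod phosphodiesterase, from 493 to 61.8 CPM, and 3 of them at day 20.

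Over the 9 libraries, genes outside the 10 whose levels went closely with the mean of the 10 were Slco2b1 and Anxa3 (both r = 0.985), Cst3 (0.984), Ptgs1 (0.968), Chka (0.957) and Tgfb1 (0.956), by Pearson correlation of log2 CPM over 1357 genes. The points are 9 libraries in 3 days, so that these values mostly restate the difference between days. Slco2b1, an organic anion transporter, averaged 427 ± 77.6 CPM in darkness, 61.4 ± 13.3 CPM at day 7 and 194 ± 28.5 CPM at day 20. Among the 10 themselves, each gene's correlation with the mean of the others was 0.963 for Gpr34, 0.953 for Olfml3, 0.946 for Slc2a5, 0.931 for Tmem119 and 0.901 for P2ry12, lower for Sparc (0.873), Cx3cr1 (0.798), Siglech (0.754) and P2ry13 (0.752), and −0.857 for Fcrls.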

How the data were processed

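Single-cell 3' v2 libraries (10x Genomics) of sorted retinal cells were aligned by the authors with Cell Ranger to mm10, per the labels, and the deposited matrices hold raw UMI counts for 27998 genes; no version is given in the sources used here. From these counts, each barcode was kept in the library with its highest UMI total. Cells needed 200 detected genes, under 10% mitochondrial UMIs, at least 3 UMIs of 15 myeloid markers and more of these than of any of 10 other marker lists. Of 851 barcodes past the first 2 filters, 117 were left out by markers. Rod genes were taken as the highest other list in 78 of them. Ties with rods, and barcodes without UMIs of any other list, were counted as rod there. No doublet caller was run. Counts were summed per library and tested with edgeR 4.0.16 (R 4.3.3, quasi-likelihood, TMM, low-count filter, Benjamini-Hochberg, threshold 0.05), all 3 days in a fit. Sums within MHC class II or immediate-early classes needed 5 cells, and library was a block in comparisons within libraries. CPM are shares of a library's UMIs, so that depth sets their precision. Shares of cells used exact (Clopper-Pearson) 95% intervals, which like the floor of 3 counts cover counting error only. Code was tested on simulated data. Annotation was GENCODE M21, matching 98.7% of identifiers. DESeq2 1.42.0, other filters, each library left out, the replicate block and, chosen after seeing the data, the cells with less immediate-early RNA were alternatives. The 10 genes and all lists were chosen with earlier results of these data known. All 10 genes are named in every comparison, up to 4 of each list by smallest p, and the 8 genes most like the 10, except a few genes that are not reported here.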

Additional observations from a re-analysis of the deposited data

How the results depend on the processing

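Using every deposited entry, with shared barcodes counted in each library, left 1 of the 10 genes (Fcrls) past the threshold at day 7 against day 0. It left 0 at day 20 against day 0, 0 between days 20 and 7, and 0 at both days in MHC class II-negative cells. In MHC class II-positive against negative cells 3 of 8 tested passed, where the reported fit could test only 2, and by immediate-early RNA 7 of 8 did. No share over all genes is given for these fits. The same holds for the other alternatives named here, for the fits that left out a library and for the replicate block. The exceptions are the cells with less immediate-early RNA and those with up to 2 MHC class II UMIs, whose shares stand above. Without such a share a count of passing genes cannot be set against all genes. With every deposited entry Olfml3 by MHC class II was −0.20 (adjusted p = 0.697 by edgeR). By immediate-early RNA Fcrls was −0.76 (adjusted p = 1.9e-05 by edgeR), so that it passed as lower, beside 0.41 in the reported fit. Sparc there was 0.0552 (adjusted p = 0.608). With no low-count filter 1 gene passed at day 20 against day 0, 1 between days 20 and 7, and 4 in MHC class II-negative cells at day 7, and the change of the Sparc difference by MHC class II between days was −0.18. With the barcodes left out by markers retained, 1 passed at day 20 against day 0, 0 between days 20 and 7 (Fcrls there 0.0371), and 0 of 1 tested in MHC class II-negative cells at either day. In these cells 3 of 4 tested passed at day 20 with 100 detected genes, and 8 of 8 at day 7 with up to 2 MHC class II UMIs. In the cells with less immediate-early RNA 1 passed at day 20 against day 0 and 0 between days 20 and 7, where Cx3cr1 was −0.45 and Fcrls 0.16. The causes were not tested, and the number of genes with enough counts to be tested also differed between these fits. In MHC class II-negative cells that number also differed between the fits below that left out a library.

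Leaving out each library in turn gave 9 to 10 genes at day 7 against day 0, 2 to 4 at day 20 against day 0, 0 to 5 between days 20 and 7, 0 to 3 and 0 to 6 in MHC class II-negative cells at days 7 and 20, and 2 to 4 by immediate-early RNA. Fcrls between days 20 and 7 ranged from −0.51 to 0.22 (0.13 without replicate 1 of day 20, 0.22 without replicate 2), Sparc by immediate-early RNA from −0.18 to 0.0464 (the latter without replicate 1 of day 7), and the change between days of the MHC class II difference from −5.49 to 2.59 for Olfml3 and from −0.54 to 1.61 for Sparc, both lowest without replicate 2 of day 7.

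Deviations of same-numbered libraries correlated at −0.03 to 0.15 over 9 pairs (other pairs −0.14 to 0.09), and 3 of 9 libraries correlated best with their own number. The highest value was that of replicate 2 of day 0 with replicate 2 of day 20. With 3 libraries a day, some of few cells, these values cannot tell whether same-numbered libraries were paired. With the replicate block, 2 genes passed at day 20 against day 0 in place of 4, 4 at day 7 in MHC class II-negative cells in place of 2, 10 at day 7 and 3 between days 20 and 7. Of 142 counts of genes under the alternatives 101 stayed within 1.5 times the reported count. These include counts of 0 that stayed at 0, as in every alternative of the share test and of the MHC class II difference between days. Such counts say little about how stable the calls are. Of the single-gene values 12 changed sign, 92 lost and 29 gained the threshold and 900 stayed. Sums of 13807 UMIs in MHC class II-negative cells at day 7 and the library of 17 cells limit what these data can show.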

Other observations

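The gene whose pattern over the 9 libraries stood apart from the other 9, Fcrls, went with a different set of genes, chosen after the values were seen. By Pearson correlation of log2 CPM over 1357 genes the closest were Aldh2 (r = 0.956), an aldehyde dehydrogenase, Spp1 (0.939), the matrix protein osteopontin, Apoe (0.931), H2-Aa (0.923), an MHC class II chain, Arpc3 (0.923), a subunit of the actin-branching complex, Bloc1s1 (0.911), Atp5j2 (0.907) and H2-Ab1 (0.898). Aldh2 averaged 44.2 ± 7.69 CPM in darkness, 115 ± 27.6 CPM at day 7 and 107 ± 16.4 CPM at day 20 (mean ± SD, n = 3 libraries). H2-Aa stood at 99.4 ± 19.9, 3169.7 ± 1387 and 1586 ± 680.9 CPM. Spp1, at 2.04 ± 3.53 CPM in darkness, was at 448 ± 286 at day 7 and at 1648 ± 2433 at day 20, where the spread between libraries was larger than the mean. As for the 10 genes, the 9 points are libraries of 3 days and these values mostly restate the difference between days.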
